A study of Mus musculus with 6 samples.

Results

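The genes flanking Twist2 on mouse chromosome 1 are 116 of the 55359 genes in the deposited count table. They were chosen by position and level: a start within 10 Mb of the start of Twist2 and a mean of at least 10 counts over the 6 libraries, with Twist2 itself and 6 other genes (Col4a3, Col4a4, Col6a3, Per2, Ndufa10 and Ackr3) left out by name. Of 432 rows in the window, 309 were under the count minimum and 160 of these had no count in any library. The lowest member by mean count was Gpr55 with 10.2 counts, and the highest gene under the minimum was Espnl with 9.67 counts. Members ran from Irs1, 9.52 Mb toward lower coordinates, to Gm3555, 6.66 Mb toward higher coordinates. The first genes beyond the window that had enough counts were Nyap2 at 10.7 Mb and Cdh20 at 13.0 Mb. There were 75 members on the low-coordinate side of Twist2 and 41 on the high-coordinate side.

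The study sequenced poly(A) RNA of whole lungs from mouse embryos at E18.5, shortly before birth, as 3 libraries labelled Prmt5 knockdown and 3 labelled WT (wild type), all of strain C57. The series text names a mesenchymal, Dermo1-specific knockout of Prmt5, while the sample labels say knockdown, and Dermo1 is another name of Twist2. Whether the wild type embryos carried a Cre allele or floxed Prmt5 alleles, and which Cre line was used, is not stated in the labels. They also do not tell whether the embryos of a group came from separate litters, so p-values measure the spread between these 6 libraries. The knockdown-labelled libraries had 16100007, 14390202 and 19262837 counts, and the wild type libraries had 16358478, 14383415 and 15544572 counts. The comparison asked whether expression along the stretch around the Cre driver gene differed by genotype label.

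Twist2 encodes a basic helix-loop-helix transcription factor of mesenchymal cells, a family that binds the short DNA motif called the E-box. In the commonly used Dermo1-Cre mouse line the recombinase is placed in the Twist2 gene, and DNA close to an engineered allele is inherited together with it. The neighbouring genes have unrelated roles: they include UDP-glucuronosyltransferases of the Ugt1a cluster, subunits of the COP9 signalosome, motor and cilium proteins, and the nucleolar protein Ncl.

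The promoters of Twist2 and of the 4 members with a sequence among the 5 of smallest p are shown so that the letters behind the named genes can be read. Each is the 250 bases before the annotated start, on the plus strand, from RefSeq on GRCm38.p6, and capitals mark the E-box letters CANNTG, which read the same on both strands. Twist2 lies at chr1:91801211-91801460, B3gnt7 at chr1:86302971-86303220, D2hgdh at chr1:93824990-93825239, Ugt1a6a at chr1:88134559-88134808 and Ugt1a7c at chr1:88094751-88095000.
Twist2: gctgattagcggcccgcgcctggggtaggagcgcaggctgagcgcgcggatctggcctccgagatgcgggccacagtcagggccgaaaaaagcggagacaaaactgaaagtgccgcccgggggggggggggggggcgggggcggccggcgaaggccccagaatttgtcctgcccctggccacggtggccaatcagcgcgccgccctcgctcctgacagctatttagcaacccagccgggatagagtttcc
B3gnt7: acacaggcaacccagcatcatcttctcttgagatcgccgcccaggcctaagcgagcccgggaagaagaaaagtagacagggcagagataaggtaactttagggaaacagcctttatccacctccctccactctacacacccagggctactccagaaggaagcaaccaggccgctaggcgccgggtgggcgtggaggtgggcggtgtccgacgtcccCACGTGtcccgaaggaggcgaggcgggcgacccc
D2hgdh: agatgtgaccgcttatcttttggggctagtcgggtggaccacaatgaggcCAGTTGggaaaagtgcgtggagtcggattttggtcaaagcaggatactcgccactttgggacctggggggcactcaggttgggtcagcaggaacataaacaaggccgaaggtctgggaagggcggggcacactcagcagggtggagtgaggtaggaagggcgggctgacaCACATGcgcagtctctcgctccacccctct
Ugt1a6a: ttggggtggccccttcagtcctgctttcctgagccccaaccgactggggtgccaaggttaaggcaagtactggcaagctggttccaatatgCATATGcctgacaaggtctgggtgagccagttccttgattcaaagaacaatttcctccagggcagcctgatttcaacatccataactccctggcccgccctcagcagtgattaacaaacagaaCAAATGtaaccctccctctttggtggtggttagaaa
Ugt1a7c: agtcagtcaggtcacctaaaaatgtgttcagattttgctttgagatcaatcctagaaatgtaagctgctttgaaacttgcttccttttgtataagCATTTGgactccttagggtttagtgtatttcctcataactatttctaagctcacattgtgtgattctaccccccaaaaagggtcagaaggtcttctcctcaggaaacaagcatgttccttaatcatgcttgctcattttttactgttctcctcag
The window of Twist2 held no E-box, those of B3gnt7 and Ugt1a7c held 1 each, and those of D2hgdh and Ugt1a6a held 2 each. A promoter was found by symbol for 98 members, of which 58 (59.2%) held an E-box, against 66.0% of the 27025 promoters of the same length in the RefSeq table. The median GC content was 58.4% in the members' promoters and 52% in all promoters. These are matches of letters only.

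The targeted gene was checked first. Prmt5, an arginine methyltransferase, had 39.6, 47.8 and 46.9 CPM (counts scaled to a common library size) in knockdown-labelled libraries and 46.7, 47.3 and 48.3 CPM in wild type libraries. Its groups overlapped, with a log2 fold change of -0.08 (SE 0.09) and an adjusted p of 0.682 (edgeR). The level of Prmt5 RNA in the whole lung thus did not set the labels apart, and the groups are called by their labels here.

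Twist2 was represented by few reads. Its counts were 17, 13 and 29 in knockdown-labelled libraries and 42, 29 and 48 in wild type libraries. Scaled to CPM it had 1.05, 0.920 and 1.49 in knockdown-labelled libraries, against 2.60, 2.05 and 3.08 in wild type libraries. All 3 knockdown-labelled libraries were below all 3 wild type libraries on this scale. The log2 fold change was -1.14 (SE 0.295), with an unadjusted p of 0.00603 and an adjusted p of 0.163 over all genes tested (edgeR). The lung mesenchyme markers Tbx4, Foxf1, Pdgfra, Tcf21 and Wnt2 summed to 799 to 891 CPM in knockdown-labelled libraries and 997 to 1178 CPM in wild type libraries, and 4 of the 5 had an unadjusted p under 0.05 with a lower level. Neither their part in the Twist2 difference nor that of a Cre allele in the Twist2 gene, which the labels do not give, was tested. In RNA of a whole organ, fewer cells of a type and less RNA per cell cannot be told apart.

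The chromosomal stretch as a whole did not move in one direction. All 116 members passed the filter on low counts, and none was called at an adjusted p under 0.05, where 0.0338% of the 17728 genes tested were called (6 genes, edgeR). At an unadjusted p under 0.05 there were 9 lower members (7.76%, against 8.52% of all genes tested) and 15 higher members (12.9%, against 8.48%), in all 24 of 116, or 20.7%, against 17.0% of all genes tested. The groups did not overlap for 13 lower members (11.2%, against 12.4% of all genes) and 19 higher members (16.4%, against 10.8%). Log2 fold changes were negative for 55 members and positive for 61, which is 52.6% positive, beside 52.9% of all genes tested. Their median was 0.02, against 0.01 for all genes, and 86 of the 116 lay within 0.5 of 0. With DESeq2, 7 members (6.03%) had an adjusted p under 0.05, against 4.54% of all genes it gave a value for. Those lower were B3gnt7, D2hgdh and St8sia4, and those higher were Gpc1, Ugt1a6a, Kif1a and Rab17. Without wild type replicate 1 the shares at an unadjusted p under 0.05 were 4.31% lower and 6.90% higher, with 4.70% and 4.43% over all genes in the same fit. The 6 genes left out by name bear on this count, because 5 of them had an unadjusted p under 0.05: Col4a3, Col4a4, Col6a3 and Ackr3 lower, Ndufa10 higher. With them put back, the 122 genes gave 10.7% lower and 13.1% higher.

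**Figure D1:**
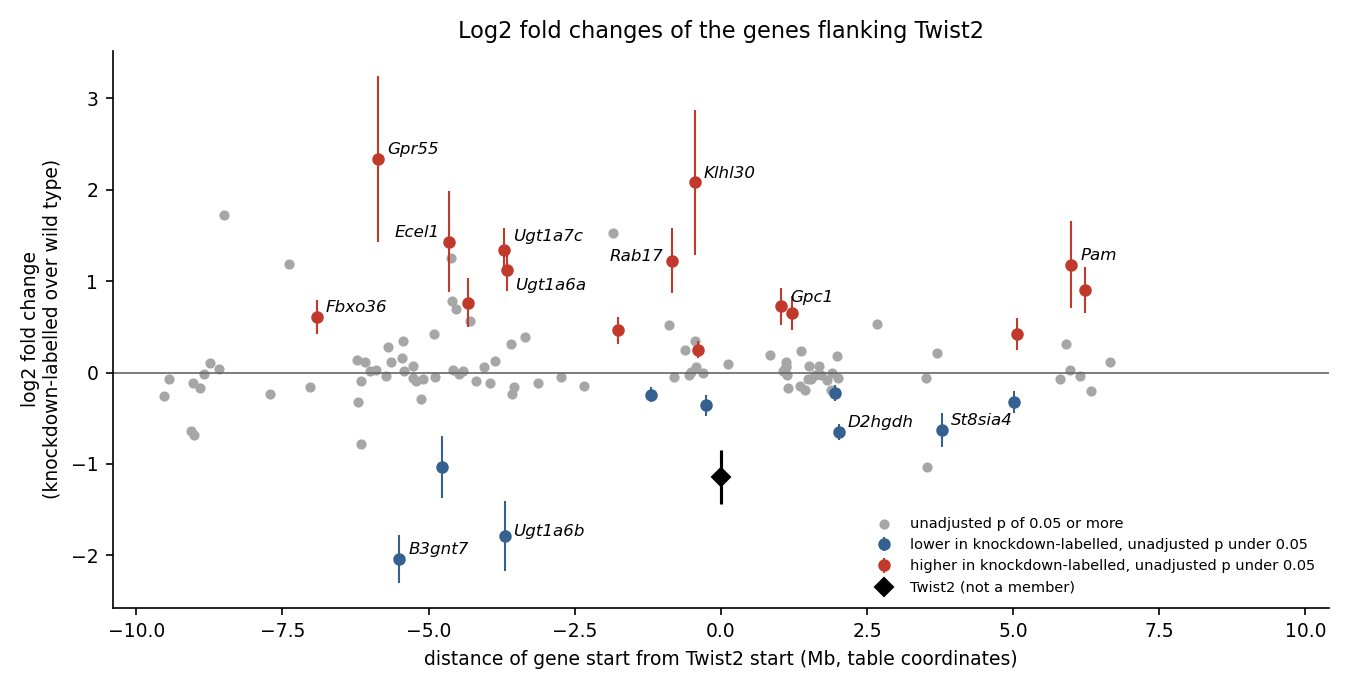
Log2 fold change (knockdown-labelled over wild type, edgeR) of the 116 genes flanking Twist2 against the distance of each gene's start from that of Twist2 in Mb. Bars are 1 SE for genes with an unadjusted p under 0.05, grey points are the other members, and the diamond is Twist2 at -1.14; the median of the members is 0.02 and points of both signs are mixed along the stretch.

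Members of both signs were found at every distance from Twist2. Within 2 Mb there were 39 members, of which 3 were lower and 6 higher at an unadjusted p under 0.05, with a median log2 fold change of 0.06 (7.69% and 15.4%, against 8.52% and 8.48% of all genes tested). From 2 to 5 Mb there were 33 members, with 4 lower and 4 higher and a median of 0.02. From 5 to 10 Mb there were 44 members, with 2 lower and 5 higher and a median of -0.0011. The genes left out by name are not in these counts. Col6a3, Ackr3, Per2 and Ndufa10 lie within 2 Mb, with log2 fold changes of -0.31, -0.47, -0.16 and 0.45. All of them but Per2 had an unadjusted p under 0.05 (edgeR). Col4a3 and Col4a4 lie between 5 and 10 Mb, with -0.94 and -0.76, and both were lower at that threshold. Members whose groups did not overlap with a higher level made up 23.1% within 2 Mb (9 of 39), 12.1% from 2 to 5 Mb and 13.6% from 5 to 10 Mb, against 10.8% of all genes tested. The 15 members within 2 Mb on the low-coordinate side had 2 lower and 4 higher and a median of 0.25, and the 24 on the other side had 1 lower and 2 higher and a median of 0.0066. Neighbouring members often differed in sign: Asb1, Hes6 and Traf3ip1, the nearest members on the low-coordinate side, had log2 fold changes of -0.36, 0.25 and -0.00. The nearest members on the other side, Hdac4, Cops9 and Gpc1, had 0.10, 0.20 and 0.73. Per2 is nearer than Hes6, and Ndufa10 is nearer than Cops9 and Gpc1, but both were left out by name. The differences between distances were not tested.

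Other stretches of the genome were read from the same fit. The rest of chromosome 1 had 184 of 929 tested genes with an unadjusted p under 0.05 (19.8%), 9.80% lower and 10.0% higher, and a median log2 fold change of 0.03. Genes within 10 Mb of Prmt5, which the series text names as knocked out, had 48 of 215 (22.3%), 8.84% lower and 13.5% higher. None of them had an adjusted p under 0.05. Genes within 10 Mb of Glo1 had 58 of 436 (13.3%), 7.34% lower and 5.96% higher, and 2 at an adjusted p under 0.05. The Glo1 stretch held the lowest log2 fold change of all genes tested, -7.92, so it is not taken as a neutral control. The share for the genes flanking Twist2, 20.7%, lay between the shares of these stretches. It leaves out 6 genes by name, and no such genes were left out of the other stretches. With the 6 put back, the 122 genes gave 10.7% lower and 13.1% higher, so the order of the stretches depends on this choice. The differences between stretches were not tested. Large values were more frequent among the members: 15 of 116 (12.9%) had an absolute log2 fold change above 1, against 4.91% of all genes tested, 4.95% of the rest of chromosome 1, 8.84% of the genes near Prmt5 and 5.28% of those near Glo1. Of these 15, 11 had a mean count under 100. Spread between libraries was much the same as elsewhere, with a median coefficient of variation of 13.0% in knockdown-labelled and 10.6% in wild type libraries for the members, and 12.8% and 9.52% for all genes tested.

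**Figure D2:**
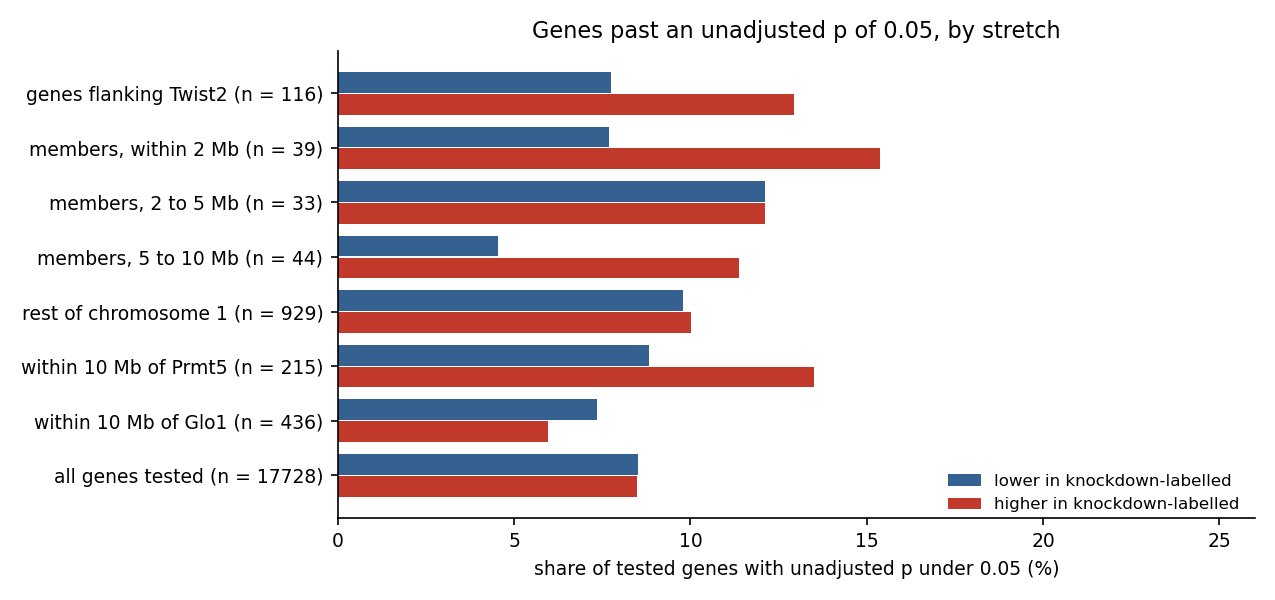
Share of tested genes (%) with an unadjusted p under 0.05, lower (blue) or higher (red) in knockdown-labelled libraries, for the members, for members by distance and for other stretches, with the number of genes in brackets. The members had 7.76% lower and 12.9% higher, against 8.52% and 8.48% of all genes tested. Besides the centre gene of a stretch, genes were left out by name only for the members.

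Enzymes and solute carriers had 5 lower and 4 higher members of 18 at an unadjusted p under 0.05 (27.8% and 22.2%, against 8.52% and 8.48% of all genes tested). Of these 9, 3 were Ugt1a genes that share exons, and differences between role lists were not tested. B3gnt7 (ENSMUSG00000079445, chromosome 1, 86230554 to 86235027 in the table's coordinates), whose product extends polylactosamine and keratan sulfate sugar chains, had 7.29, 8.49 and 8.51 CPM in knockdown-labelled libraries and 47.6, 27.0 and 24.9 CPM in wild type libraries. Every knockdown-labelled library was below every wild type one, and wild type replicate 1 was far above the other two. Its log2 fold change was -2.04 (SE 0.262), a level 4.10-fold lower, with an unadjusted p of 0.00011 and an adjusted p of 0.0782 (edgeR); leaving out any 1 library gave -2.20 to -1.68. DESeq2 gave an adjusted p of 1.49e-11, and edgeR without the filter on low counts gave 0.0119. With the heart muscle level as a covariate the log2 fold change was -1.53. Markers of endothelium summed to 1417 to 1818 CPM in knockdown-labelled libraries and 2126 to 2421 CPM in wild type libraries, with all 5 of the list lower at an unadjusted p under 0.05; their part in the B3gnt7 difference was not tested.

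D2hgdh (ENSMUSG00000073609, 93752631 to 93780070) encodes the mitochondrial enzyme that oxidises D-2-hydroxyglutarate. It had 14.6, 15.4 and 13.6 CPM in knockdown-labelled libraries and 23.1, 22.7 and 22.5 CPM in wild type libraries. The groups were well apart and each was tight, at 14.5 ± 0.925 and 22.8 ± 0.311 CPM (SD, n = 3 each). The log2 fold change was -0.65 (SE 0.09), a level 1.57-fold lower, with an adjusted p of 0.0804 in edgeR and 0.000835 in DESeq2. It ranged from -0.70 to -0.60 when any 1 library was left out and was -0.70 with the heart muscle level as a covariate.

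St8sia4, which adds polysialic acid to the neural cell adhesion molecule, had 19.5, 29.9 and 24.0 CPM in knockdown-labelled libraries and 43.2, 30.4 and 39.5 CPM in wild type libraries. Knockdown-labelled replicate 2 and wild type replicate 2 came close to each other, and the groups did not overlap. The log2 fold change was -0.63 (SE 0.186, edgeR unadjusted p 0.0121, adjusted p 0.191). Slco4c1, an organic anion transporter, averaged 83.5 ± 13.4 CPM in knockdown-labelled and 104 ± 7.07 CPM in wild type libraries (SD, n = 3 each), and its log2 fold change was -0.32. It lies on the strand opposite to Panct2, whose log2 fold change was 0.42, and the strand setting of the counting is not given in the sources used here, so reads of the 2 genes may not have been told apart.

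Counts of the Ugt1a genes, which share their later exons, had log2 fold changes of opposite sign. Ugt1a genes attach glucuronic acid to bilirubin, hormones and foreign compounds, and each gene joins its own first exon to the same set of later exons. Of 9 Ugt1a genes in the table, 3 were members, 3 had no count in any library and 3 had counts under the minimum. Ugt1a6b had 9, 6 and 7 counts in knockdown-labelled libraries and 33, 14 and 25 counts in wild type libraries. It passed the count minimum through the wild type libraries, and each of its knockdown-labelled counts was under that minimum. Ugt1a6a had 82, 68 and 79 counts in knockdown-labelled libraries and 30, 37 and 30 counts in wild type libraries. Ugt1a7c had 32, 34 and 44 counts in knockdown-labelled libraries and 13, 12 and 15 counts in wild type libraries. Ugt1a6b was lower in every knockdown-labelled library and the other two were higher in every one, with no overlap in any of the 3 genes. Log2 fold changes were -1.79 (SE 0.384, adjusted p 0.135) for Ugt1a6b, 1.12 (SE 0.23, adjusted p 0.128) for Ugt1a6a and 1.34 (SE 0.245, adjusted p 0.116) for Ugt1a7c in edgeR.

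Ugt1a6a and Ugt1a6b are near-identical copies, so their split is uncertain. In the GENCODE M21 transcripts the first, leader exon of both was identical over 127 bases, the second exon over 833 of 859 aligned bases (97.0%), and the later exons over all 1311 bases. Exonic bases shared with other genes made up 50.3% of Ugt1a6a, 60.6% of Ugt1a6b and 54.6% of Ugt1a7c, and how reads that touch several genes were counted is not given in the sources used here. Of the counts of the pair, Ugt1a6b held 9.89%, 8.11% and 8.14% in knockdown-labelled libraries and 52.4%, 27.5% and 45.5% in wild type libraries. The highest knockdown-labelled share had a 95% exact binomial interval (Clopper-Pearson) of 4.62% to 17.9%, and the lowest wild type share one of 15.9% to 41.7%, which cover counting error only. The shares averaged 8.71% ± 1.02 in knockdown-labelled and 41.8% ± 12.9 in wild type libraries (SD, n = 3 each), with an exact two-sided permutation p of 0.1, the smallest that 3 against 3 libraries can give. This ratio was chosen after its values were seen, with the groups already apart. The permutation p was thereby fixed, and no conclusion is drawn from it. The sum of both genes was 5.09 ± 0.620 CPM in knockdown-labelled and 3.67 ± 0.194 CPM in wild type libraries, and the whole cluster summed to 7.62 ± 0.392 and 4.79 ± 0.0265 CPM (SD, n = 3 each).

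**Figure D3:**
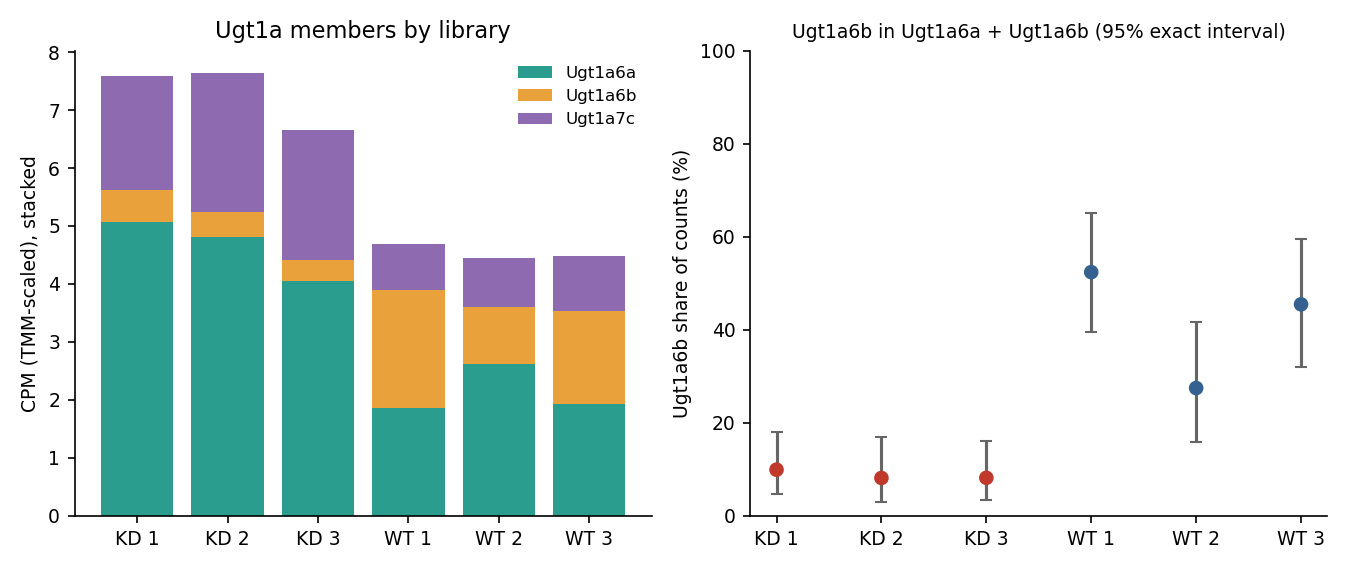
Left, CPM of Ugt1a6a, Ugt1a6b and Ugt1a7c stacked for each library; right, Ugt1a6b as a share (%) of the counts of Ugt1a6a and Ugt1a6b with 95% exact binomial intervals, for the knockdown-labelled (KD) libraries and then the wild type (WT) libraries. The share was 8.11% to 9.89% in knockdown-labelled and 27.5% to 52.4% in wild type libraries.

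Members of the ubiquitin, COP9 signalosome and autophagy list had 3 lower and 1 higher of 11 at an unadjusted p under 0.05 (27.3% and 9.09%, against 8.52% and 8.48% of all genes tested), with a median log2 fold change of -0.02. Cops8, a signalosome subunit, had 53.0, 53.2 and 52.0 CPM in knockdown-labelled libraries and 69.4, 59.3 and 58.2 CPM in wild type libraries. Asb1, a substrate-binding subunit of a ubiquitin ligase and one of the nearest genes to Twist2, had 20.8, 20.3 and 16.9 CPM in knockdown-labelled libraries and 26.9, 23.2 and 24.1 CPM in wild type libraries. Both genes had lower values in every knockdown-labelled library, by small margins. Their log2 fold changes were -0.24 (edgeR unadjusted p 0.0276, adjusted p 0.242) and -0.36 (unadjusted p 0.0171, adjusted p 0.212). For Cops8 the log2 fold change was -0.16 without wild type replicate 1 and -0.12 with the heart muscle level as a covariate, and its unadjusted p stayed under 0.05 in 2 of the 6 fits that left out 1 library. Atg4b, a protease that processes the LC3 proteins of autophagosomes, had 57.0 ± 5.45 CPM in knockdown-labelled and 66.4 ± 3.08 CPM in wild type libraries (SD, n = 3 each), with overlapping groups. Cops9, a second signalosome subunit, had 26.4 ± 2.25 and 23.1 ± 3.04 CPM in knockdown-labelled and wild type libraries, with a log2 fold change of 0.20 and an unadjusted p of 0.15 (edgeR). Fbxo36, an F-box protein, had 8.15, 5.87 and 7.84 CPM in knockdown-labelled libraries and 5.19, 4.59 and 4.55 CPM in wild type libraries, all knockdown-labelled values being higher. Its log2 fold change was 0.61. Fbxo36 (84817562 to 84878208) overlaps Trip12 (84698910 to 84818237) only at its start, on the opposite strand. Trip12 had far more counts and a log2 fold change of -0.16.

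The list of membrane traffic, cytoskeleton and cilium genes had no lower and 4 higher members of 17 at an unadjusted p under 0.05. These made up 23.5%, against 8.48% of all genes tested that were higher and 17.0% in either direction. Kif1a, a kinesin that carries synaptic vesicle precursors along axons, had 25.7, 16.8 and 22.8 CPM in knockdown-labelled libraries and 11.6, 16.0 and 14.0 CPM in wild type libraries. Rab17, a small GTPase of polarised epithelia, had 18.6, 10.5 and 14.9 CPM in knockdown-labelled libraries and 3.34, 7.63 and 7.95 CPM in wild type libraries. Neither gene's groups overlapped, although the lowest knockdown-labelled value of Kif1a lay near its highest wild type value. Log2 fold changes were 0.65 (SE 0.189, adjusted p 0.189) for Kif1a and 1.22 (SE 0.358, adjusted p 0.189) for Rab17 in edgeR. Iqca, a protein of the motile cilium, had 10.6, 9.76 and 10.0 CPM in knockdown-labelled libraries and 8.03, 7.70 and 6.34 CPM in wild type libraries, with a log2 fold change of 0.46 and groups apart. The ciliated cell markers Foxj1, Ccdc40, Dnah5 and Rsph1 summed to 181 to 193 CPM in knockdown-labelled libraries and 140 to 156 CPM in wild type libraries, with 3 of the 4 higher at an unadjusted p under 0.05, and their part in the Iqca difference was not tested. Traf3ip1, which belongs to the transport machinery of cilia and is the nearest of this list to Twist2, averaged 43.9 CPM in both groups, with SDs of 6.65 in knockdown-labelled and 1.70 in wild type libraries (n = 3 each).

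Klhl30, a kelch-family protein, is on the same list. It had 8.15, 19.2 and 11.1 CPM in knockdown-labelled libraries and 0.803, 1.13 and 7.11 CPM in wild type libraries. Its groups did not overlap, but wild type replicate 3 lay close to the knockdown-labelled range. The log2 fold change was 2.08 (SE 0.791, edgeR unadjusted p 0.0339, adjusted p 0.261). The 12 heart muscle markers, none at 0 in any library, summed to 4210, 12155 and 3308 CPM in knockdown-labelled libraries and 501, 616 and 2902 CPM in wild type libraries, and 8 of them were higher at an unadjusted p under 0.05. With the level of that list as a covariate, Klhl30 had a log2 fold change of 0.17. Without the covariate, leaving out 1 library gave 1.63 to 3.73, the highest without wild type replicate 3. The sums of the list did not overlap between the groups, so this covariate and the label cannot be fully told apart. The part of heart muscle in the Klhl30 difference was not tested.

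Other members stood high in the same libraries as heart muscle markers. Pam, the amidating enzyme of peptide hormones, which is abundant in the cardiac atrium, had 549, 710 and 387 CPM in knockdown-labelled libraries and 137, 148 and 440 CPM in wild type libraries. Its groups overlapped through wild type replicate 3, its log2 fold change was 1.18 (edgeR unadjusted p 0.0423), and the covariate gave -0.07, while leaving out wild type replicate 3 gave 1.95. Sphkap, an anchor of protein kinase A found in heart, had 5.25, 10.5 and 5.79 CPM in knockdown-labelled libraries and 0.742, 0.777 and 4.93 CPM in wild type libraries, with a log2 fold change of 1.73 and -0.07 under the covariate. These 2 genes were chosen after their values were seen. The part of heart muscle in their values was not tested, and the covariate cannot be fully told apart from the label. Over all members, 12 (10.3%) had an unadjusted p under 0.05 with this covariate, against 6.97% of all genes in that fit. Of the 24 members without it, 10 stayed under 0.05: Fbxo36, B3gnt7, Gm37447, Ugt1a7c, Ugt1a6b, Ugt1a6a, Iqca, Kif1a, D2hgdh and St8sia4. The share of all genes that stayed is not given, so the count of 10 is not read as particular to the members.

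**Figure D4:**
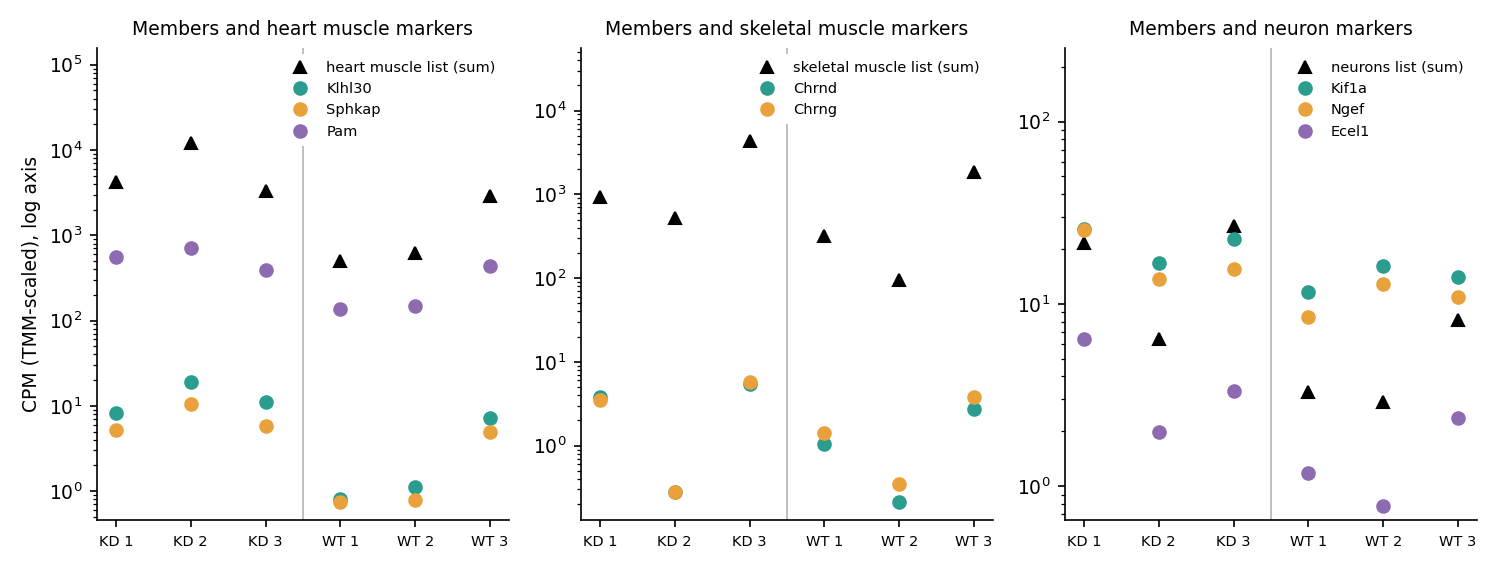
CPM on a log axis for each library, knockdown-labelled (KD) left of wild type (WT): summed heart muscle markers with Klhl30, Sphkap and Pam; summed skeletal muscle markers with Chrnd and Chrng; summed neuron markers with Kif1a, Ngef and Ecel1. The heart muscle sum was 3308 to 12155 CPM in knockdown-labelled and 501 to 2902 CPM in wild type libraries, and Pam, Sphkap and Klhl30 were highest in knockdown-labelled replicate 2.

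The receptor, ligand and channel list had no lower and 2 higher of 14 members at an unadjusted p under 0.05. These made up 14.3%, against 8.48% of all genes tested that were higher and 17.0% in either direction. The median log2 fold change of the list was 0.27. Gpc1, a heparan sulfate proteoglycan of the cell surface, had 53.3, 61.3 and 50.9 CPM in knockdown-labelled libraries and 27.6, 27.2 and 45.2 CPM in wild type libraries. Its groups did not overlap, with wild type replicate 3 nearest to the knockdown-labelled libraries, as it was for the heart muscle markers. The log2 fold change was 0.73 (SE 0.205, adjusted p 0.181 in edgeR), and it was 0.15 with the heart muscle covariate. The part of heart muscle in the Gpc1 difference was not tested. Gpr55, a receptor for lysophosphatidylinositol and the member nearest the count minimum, had 25, 10 and 17 counts in knockdown-labelled libraries and 0, 8 and 1 counts in wild type libraries, and it passed the minimum through the knockdown-labelled libraries. Chrnd and Chrng, subunits of the acetylcholine receptor of fetal muscle, spread widely within both groups, which overlapped. Chrnd had 3.83, 0.283 and 5.48 CPM in knockdown-labelled libraries and 1.05, 0.212 and 2.76 CPM in wild type libraries, and the skeletal muscle markers summed to 942, 525 and 4288 CPM in knockdown-labelled libraries and 322, 96.1 and 1832 CPM in wild type libraries.

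Among 13 genes of intracellular signalling, 1 had an unadjusted p under 0.05, and it was higher. This made up 7.69%, against 8.48% of all genes tested that were higher and 17.0% in either direction. That member was Ngef, a guanine nucleotide exchange factor that acts downstream of ephrin receptors. It had 25.5, 13.7 and 15.5 CPM in knockdown-labelled libraries and 8.47, 12.9 and 11.0 CPM in wild type libraries, with groups apart and knockdown-labelled replicate 1 well above the rest. The log2 fold change was 0.76 (SE 0.268, adjusted p 0.234 in edgeR), and it was 0.46 without knockdown-labelled replicate 1, with an unadjusted p of 0.0637. The neuron markers Tubb3, Elavl4 and Snap25 summed to 21.6, 6.44 and 26.6 CPM in knockdown-labelled libraries and 3.28, 2.90 and 8.20 CPM in wild type libraries, and 2 of the 3 were higher at an unadjusted p under 0.05. Their part in the values of Ngef and Kif1a was not tested. Ecel1, a neuronal endopeptidase chosen after its values were seen, had 6.42, 1.98 and 3.33 CPM in knockdown-labelled libraries and 1.17, 0.777 and 2.37 CPM in wild type libraries, with overlapping groups.

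Of the regulators of transcription and chromatin, 9.09% had an unadjusted p under 0.05. Of all genes tested, 8.48% were higher at that threshold and 17.0% passed it in either direction. The list had 1 higher and no lower member of 11. This was Hes6, an inhibitor of Hes repressors, with 30.3, 28.3 and 29.9 CPM in knockdown-labelled libraries and 24.7, 22.6 and 27.0 CPM in wild type libraries. Its groups were close but did not overlap, and the log2 fold change was 0.25 (SE 0.09, adjusted p 0.240 in edgeR). Hdac4, a class IIa histone deacetylase and the nearest member on the high-coordinate side, had 41.1, 35.7 and 36.3 CPM in knockdown-labelled libraries and 35.7, 34.7 and 35.5 CPM in wild type libraries, nearly the same level in both groups. None of the 6 genes of RNA binding and translation had an unadjusted p under 0.05, and their median log2 fold change was -0.02.

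Mean FPKM (fragments scaled by gene length and library size) over the 6 libraries was 294.8 for Ptma, a small acidic nuclear protein, 284 for the processed pseudogene Gm15427, 117 for the processed pseudogene Gm6136, 70.8 for Itm2c, a membrane protein of the BRI family, and 44.8 for Hdlbp, an RNA-binding protein called vigilin. Their log2 fold changes were -0.06, 0.21, -0.05, 0.03 and -0.03, and none of the 5 had an unadjusted p under 0.05 (edgeR). Reads of processed pseudogenes may come from their parent genes, so the values of Gm15427 and Gm6136 are uncertain.

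Members with fewer counts had larger log2 fold changes, with a median absolute value of 0.562 under a mean count of 100 and 0.115 at 100 or above. The 79 members with a mean count of at least 100 had 7 lower and 9 higher at an unadjusted p under 0.05. These were 8.86% and 11.4%, against 8.52% and 8.48% of all genes tested at any count. The 79 had a median log2 fold change of -0.03 and 34 positive values. The 37 members under a mean count of 100 had 2 lower and 6 higher (5.41% and 16.2%), a median of 0.32 and 27 positive values. Of the 24 members with an unadjusted p under 0.05, 21 had groups that did not overlap, and 11 stayed under 0.05 whichever library was left out: Fbxo36, B3gnt7, Ugt1a7c, Ugt1a6b, Ugt1a6a, Rab17, Gpc1, Kif1a, D2hgdh, St8sia4 and B230216N24Rik. The last is an unnamed gene inside Pam on the same strand, at 2.52 ± 0.125 CPM in knockdown-labelled and 1.34 ± 0.306 CPM in wild type libraries (SD, n = 3 each). Gm37447, a predicted gene inside Dis3l2, had 0.755 ± 0.229 CPM in knockdown-labelled and 1.56 ± 0.332 CPM in wild type libraries (SD, n = 3 each). In all, 47 members overlap another gene with a mean count of at least 10, and 12 of these are among the 24. No shares over all genes are given beside the counts of 21, 11 and 12, so these are not read as particular to the members. The strain origin of the DNA flanking the driver locus, which per-gene counts do not show, was not tested.

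**Figure D5:**
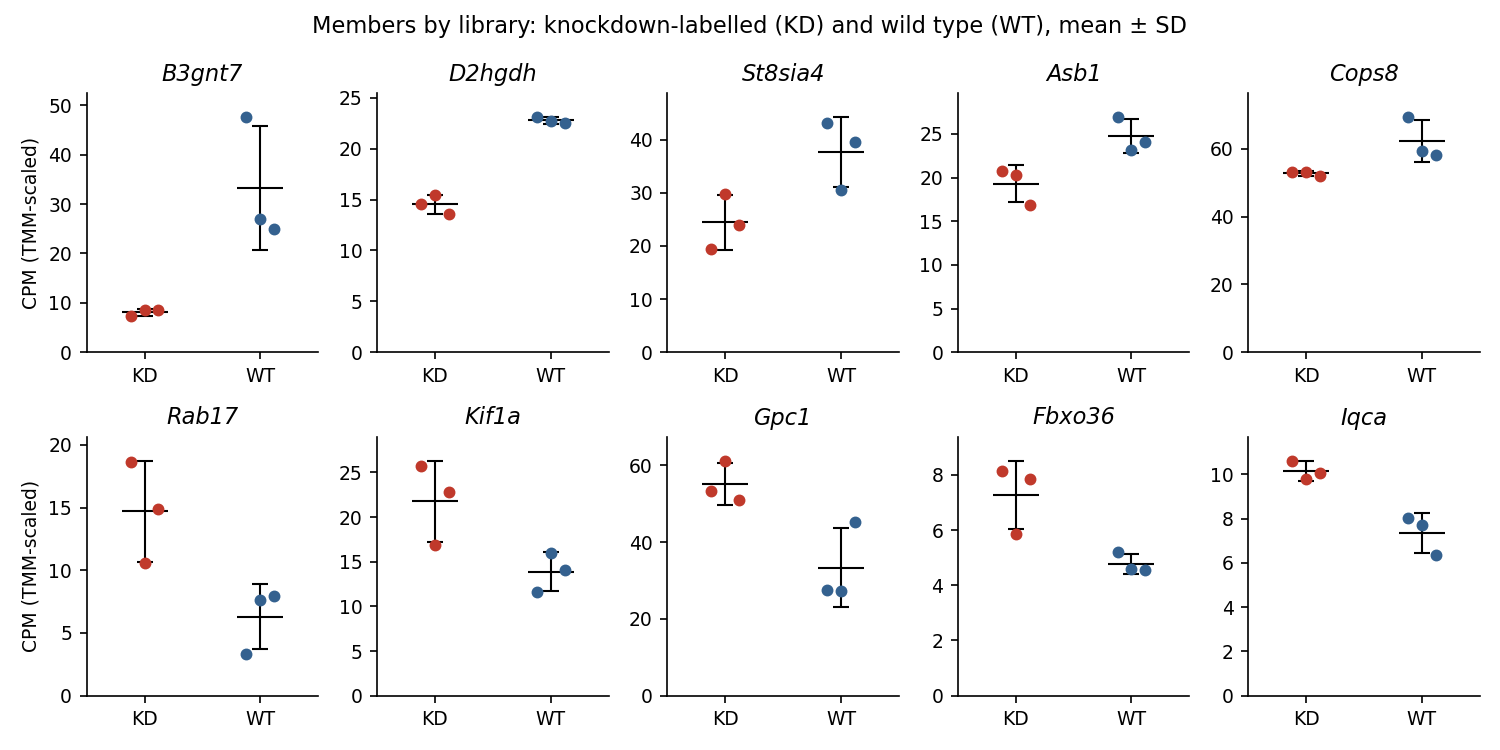
CPM of 10 members in each library (points), with the mean and SD of the knockdown-labelled (KD) and wild type (WT) groups, n = 3 each. B3gnt7 is at 7.29 to 8.51 CPM in knockdown-labelled and 24.9 to 47.6 CPM in wild type libraries, and D2hgdh has the narrowest wild type group of the plot.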

How the data were processed

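Per the file headers, the authors' table gives raw counts and FPKM for every gene in each library, with exonic lengths. FPKM recomputed from the counts, library totals and lengths differed from the deposited FPKM by at most 0.005. Per the submitters' processing notes, the tools were cutadapt 1.9.1, HISAT2 2.0.1 and HTSeq 0.6.1; their settings (genome build, strand, reads over several genes) were not given in the sources used here. Coordinates are the table's own, except those of promoters (RefSeq, GRCm38.p6) and the exon comparison (GENCODE M21).

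The counts were tested with edgeR 4.0.16 in R 4.3.3: filterByExpr (17728 genes kept), TMM scaling, glmQLFit and glmQLFTest with group as the only term, two-sided, with Benjamini-Hochberg adjustment over all genes tested at 0.05. SE is the absolute log2 fold change over the square root of F. CPM uses TMM factors. Depth was 14383415 to 19262837 counts per library, and the common biological coefficient of variation was 21.8%. Replicates within each group differed by more than counting noise, so each library counts as 1 replicate.

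The members and lists were chosen with earlier results of these data known. Genes named by rule are Twist2, the 3 nearest members on each side, the 5 of highest FPKM and those at its edges. They also include up to 10 members in each direction with an unadjusted p under 0.05 and groups apart, by smallest p. Predicted genes give way to symbols. Members named outside the rule include Atg4b, Chrnd, Chrng, Pam, Sphkap, Ecel1, B230216N24Rik and genes set beside an overlapping neighbour. Alternatives were RLE scaling, no filter, DESeq2 1.42.0, limma 3.58.1 on log2 FPKM (pseudocounts of 1 and 0.1), covariates (mean log2 CPM of the heart muscle markers; embryo sex from Ddx3y), other windows, a higher count minimum and each library left out. No set test was run. The neuron list is used without 1 of its markers, which is not reported here.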

Additional observations from a re-analysis of the deposited data

How the results depend on the processing

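The share of members at an unadjusted p under 0.05 was 7.76% lower and 12.9% higher in edgeR. With the heart muscle level as a covariate it was 4.31% lower and 6.03% higher, where all genes tested gave 3.68% and 3.28%. The summed markers of that list were higher in every knockdown-labelled library, so this covariate and the label cannot be fully told apart. Leaving out 1 library at a time gave 4.31% to 10.3% lower and 6.90% to 13.8% higher, the lowest of both without wild type replicate 1. Members whose groups did not overlap with a lower level were 13.8% to 20.7% when 1 library was left out, highest without knockdown-labelled replicate 1, where all genes gave 19.8%; smaller groups overlap less often by construction. Members past an adjusted p of 0.05 were 0 in edgeR, 1 without the filter on low counts (81 over all genes) and 7 with DESeq2 (813 over all genes), and the cause was not tested. The median log2 fold change of members was 0.0177 as reported, -0.0207 with the heart muscle covariate, 0.0628 in a window of 2 Mb and -0.0264 at a mean count of at least 100.

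Among the genes named by the rule, 4 with log2 fold changes near 0 changed sign in some fits: Gm6136 (-0.05) gave 0.18 with the heart muscle covariate and -0.114 to 0.0437 over the fits that left out 1 library, Hdlbp -0.0942 to 0.0467, Itm2c -0.0136 to 0.0599 and Traf3ip1 -0.0847 to 0.117, and the cause was not tested. Outside that rule, Pam (1.18) and Sphkap (1.73) were each at -0.07 with the heart muscle covariate. With 3 libraries in a group and 26 named genes at these depths, differences smaller than the spread between libraries were not detectable. Ugt1a and overlapping genes depend on how shared reads were counted. No paired analysis was possible because the labels give the groups no shared replicate number. Putting the 6 left-out genes back and leaving out the 3 Ugt1a members were added after the data were seen.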
